A study of Mus musculus with 21 samples.

Results

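Cultured mouse natural killer (NK) cells with both Ikzf1 and Ikzf3 disrupted (DKO) were compared with NK cells with Ikzf3 alone disrupted (Ikzf3 KO). The question is what loss of Ikzf1 adds once Ikzf3 is missing. The comparison takes 7 of the study's 21 samples, 3 DKO and 4 Ikzf3 KO. It covers 9744 of the 11736 genes in the deposited table, those at 1 RPKM or more (reads per kilobase of gene per megaread) in at least 3 of the 7 libraries. NK cells were sorted from the spleens of conditional knockout mice and maintained in medium with 50 ng/ml of human interleukin-15, and Ikzf3 was disrupted in both groups. Cultured cells of mice with Ikzf1 disrupted alone (Ikzf1 KO, 4 libraries) and of mice labelled Cre only (4 libraries) serve as a second pair that differs by Ikzf1, with Ikzf3 intact. The study describes the alleles as conditional and specific to NK cells. The Cre driver, the strain, the age of the mice and the days in culture are not given in the sources used here, and the directly sorted samples are not analysed here.

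Ikaros, the product of Ikzf1, and Aiolos, the product of Ikzf3, are zinc finger transcription factors of one family. They bind DNA as dimers at sites with a GGGA core, can form dimers with each other and with Helios (Ikzf2) and Eos (Ikzf4), and recruit chromatin remodelling complexes such as NuRD that repress or activate nearby genes. In lymphocytes they are known as regulators of lineage choice and of the change from proliferation to maturity. NK cells are innate lymphocytes that kill target cells with granules of perforin and granzymes, and interleukin-15 keeps them alive and drives their growth in culture.

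The knockouts were first checked on the targeted genes. Ikzf1 (ENSMUSG00000018654, chromosome 11, 11685003-11772926) stood at 84.8, 80.7, 87.4 and 72.9 RPKM in Ikzf3 KO and at 38.4, 25.3 and 27.2 RPKM in DKO. All DKO libraries lay below all Ikzf3 KO libraries (log2 change -1.43 ± 0.20 SE, adjusted p = 0.0043), and the same gene stood at 61.9 ± 5.22 RPKM (SD, n = 4) in Cre only and 19.1 ± 0.662 RPKM (SD, n = 4) in Ikzf1 KO. Ikzf3 (ENSMUSG00000018168, chromosome 11, 98464902-98546031) stood at 19.4, 20.2, 15.2 and 16.4 RPKM in Ikzf3 KO and at 23.7, 20.0 and 20.9 RPKM in DKO, did not pass the test (log2 change 0.27 ± 0.18 SE, adjusted p = 0.4), and stood at 41.8 ± 3.68 RPKM (SD, n = 4) in Cre only. Both knockout groups thus lay below Cre only for Ikzf3 with reads still present, and whether the deleted part of either gene contributes to these values is not given in the sources used here. Among markers of NK cells, Ncr1, which encodes the activating receptor NKp46, ranged from 80.7 to 235 RPKM over the 7 libraries. Klrb1c, which encodes NK1.1, ranged from 100.3 to 270.3 RPKM. Itga2, an integrin chain gene on the same list, was low, at 1.95 to 2.70 RPKM in Ikzf3 KO and 3.93 to 6.12 RPKM in DKO. Of 9 markers measured, 1 rose (Itga2) and 1 fell (Prf1, below). The rise was lost without S1, S2, S3, S5 or S6. Eomes and Tbx21, the T-box factors that define NK cells and related innate lymphocytes, did not pass the test: Eomes stood at 88.6, 77.2, 61.1 and 52.2 RPKM in Ikzf3 KO and 79.8, 67.8 and 67.8 RPKM in DKO (adjusted p = 0.87).

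The 7 libraries held 8.6 to 18.6 megareads in genes whose reads could be recovered from the deposited values, so low levels were measured to a fraction of an RPKM. Libraries are named S1 to S4 (Ikzf3 KO) and S5 to S7 (DKO), as in the headers of the deposited table. The 4 Ikzf3 KO libraries fell into 2 pairs. Across genes, S1 and S2 correlated at 0.99 and S3 and S4 at 0.973, while values between the pairs were 0.89 to 0.909; S1 and S2 correlated with the DKO libraries at 0.896 to 0.935 and S3 and S4 at 0.821 to 0.872. The DKO libraries correlated at 0.954 to 0.987, with S5 apart from S6 and S7. The median SD of a gene on the log2 scale was 0.364 in Ikzf3 KO, 0.208 in DKO, 0.122 in Ikzf1 KO and 0.171 in Cre only. The labels give no batch that separates S1 and S2 from S3 and S4, so the counts below are also given without S3 and S4, and single libraries are named where they decide a call.

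In the fit across all genes (limma on log2(RPKM + 0.5), Benjamini-Hochberg adjustment, calls at an adjusted p under 0.05), 664 of 9744 genes differed between DKO and Ikzf3 KO, which is 6.81% of the genes tested. Of these, 338 rose in DKO (3.47%) and 326 fell (3.35%). In all 664 the 3 DKO libraries lay on one side of the 4 Ikzf3 KO libraries; over all genes tested, 12.2% had every DKO library above and 11.8% every DKO library below. A change of at least 2-fold on the fitted scale was seen in 297 of the genes that rose and 289 of those that fell, and of at least 4-fold in 127 and 108. Fold changes are on the log2(RPKM + 0.5) scale and understate the change of genes at low levels. An exact permutation test of 3 against 4 libraries cannot give a 2-sided p under 0.0571, so calls rest on the variance shared across genes. The count fell to 400 without S3, 406 without S5, 279 without S6 and 421 without S7. It was 937 without both S3 and S4 (9.62% of genes tested; 5.31% higher and 4.31% lower), and 542 of these were among the 664. It was 3765 without both S1 and S2 (38.6%; 20.2% higher and 18.5% lower), and 661 of these were among the 664. In all, 160 of the genes that rose and 105 of those that fell kept their call whichever library was left out.

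**Figure D1:**
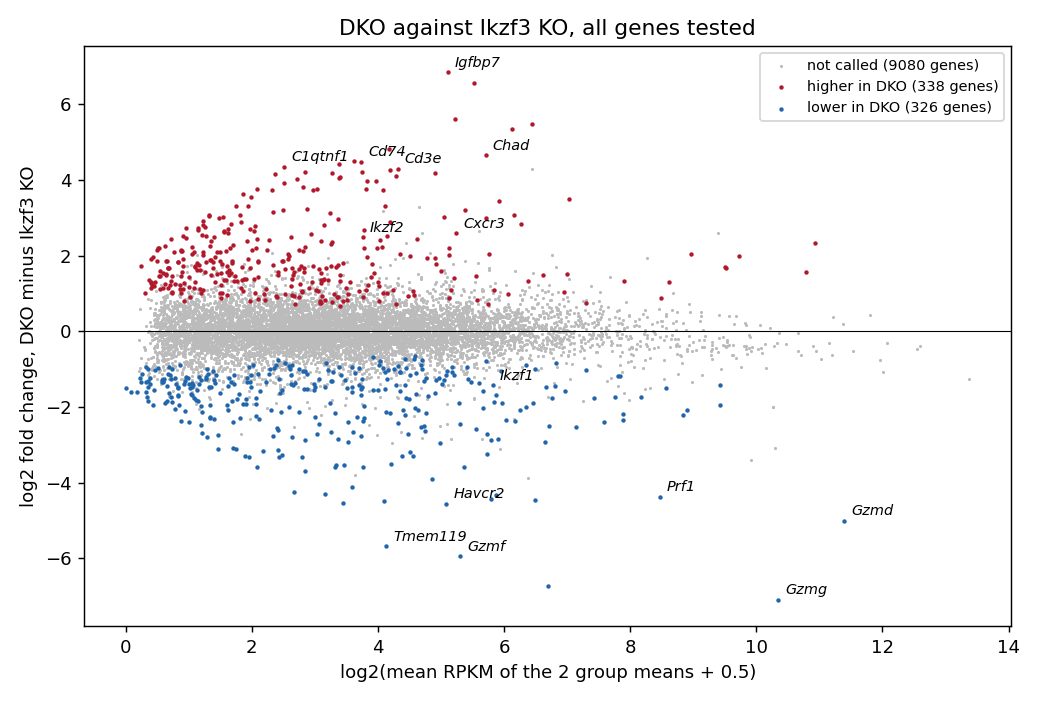
Each point is 1 of 9744 genes, with the log2 of the mean RPKM of both groups (plus 0.5) on the horizontal axis and the log2 fold change of DKO against Ikzf3 KO on the vertical axis. Red points are the 338 genes called higher in DKO and blue points the 326 called lower; Igfbp7 lies at the top and Gzmg at the bottom.

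Disruption of Ikzf1 could be set beside the same disruption with Ikzf3 intact, in 8 libraries that are not used in the DKO comparison. Ikzf1 KO against Cre only gave 1921 called genes (19.7%; 9.15% higher and 10.6% lower), from groups with a smaller spread. Leaving out 1 Ikzf1 KO library lowered this to 1063 (S12), 1127 (S13) or 1007 (S14). Of the 338 genes higher in DKO, 141 (41.7%) were also called higher in Ikzf1 KO, 14 lower and 183 not called. Of the 326 genes lower in DKO, 119 (36.5%) were also called lower in Ikzf1 KO, 6 higher and 201 not called. The 260 genes called in one direction in both were 39.2% of the genes called in DKO against Ikzf3 KO and 13.5% of those called in Ikzf1 KO against Cre only. The difference between both contrasts was tested in 1 fit of 15 libraries and was called for 635 genes (6.52%). This count dropped to 409 when S6 was left out, to 363 to 389 when S12, S13 or S14 was, and to 422 when the Cre only library S16 was. Among the 635 were 183 of the 338 genes that rose and 153 of the 326 that fell in DKO. The difference includes the change from Ikzf3 KO to DKO by which these genes were selected. That selection favours a called difference among them, so these counts are no separate evidence. The fit of 15 libraries shares a variance over groups of unlike spread (median SD 0.122 to 0.364). That variance can be too small for Ikzf3 KO, so calls of the difference are less certain than the adjusted p shows. With all 15 libraries in 1 fit, DKO against Ikzf3 KO gave 1932 called genes and Ikzf1 KO against Cre only 564.

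Eng and Tmem119 moved in the same direction in both contrasts. Eng, which encodes the TGF-beta co-receptor endoglin, stood at 0.0832, 0.0563, 0.0196 and 0.0204 RPKM in Ikzf3 KO and at 6.47, 5.88 and 6.3 RPKM in DKO (log2 change 3.62 ± 0.18 SE, adjusted p = 5.6e-05). It went from 0.0881 ± 0.115 RPKM (SD, n = 4) in Cre only to 3.71 ± 0.9 RPKM (SD, n = 4) in Ikzf1 KO, and the difference between the contrasts did not pass the test (0.79 on the log2 scale, adjusted p = 0.092). Tmem119, a membrane protein gene best known as a marker of microglia, stood at 27, 30.1, 58.6 and 19.4 RPKM in Ikzf3 KO and at 0, 0 and 0.418 RPKM in DKO (log2 change -5.69 ± 0.39 SE, adjusted p = 0.00027). It fell from 6.21 ± 4.36 RPKM (SD, n = 4) to 0.15 ± 0.114 RPKM (SD, n = 4) between Cre only and Ikzf1 KO. Its fall in DKO was larger (difference -2.63, adjusted p = 0.045). The long noncoding RNA gene Gm33424, which the rule for named genes leaves out and which was chosen after its values were seen, stood at 161, 179, 237 and 237 RPKM in Ikzf3 KO and at 0, 1.53 and 6.28 RPKM in DKO and at 79.9 ± 43.6 RPKM (SD, n = 4) in Cre only and 4.47 ± 2.11 RPKM (SD, n = 4) in Ikzf1 KO. The level of all 3 genes in DKO thus lay outside the range of Ikzf3 KO, with no overlap.

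**Figure D2:**
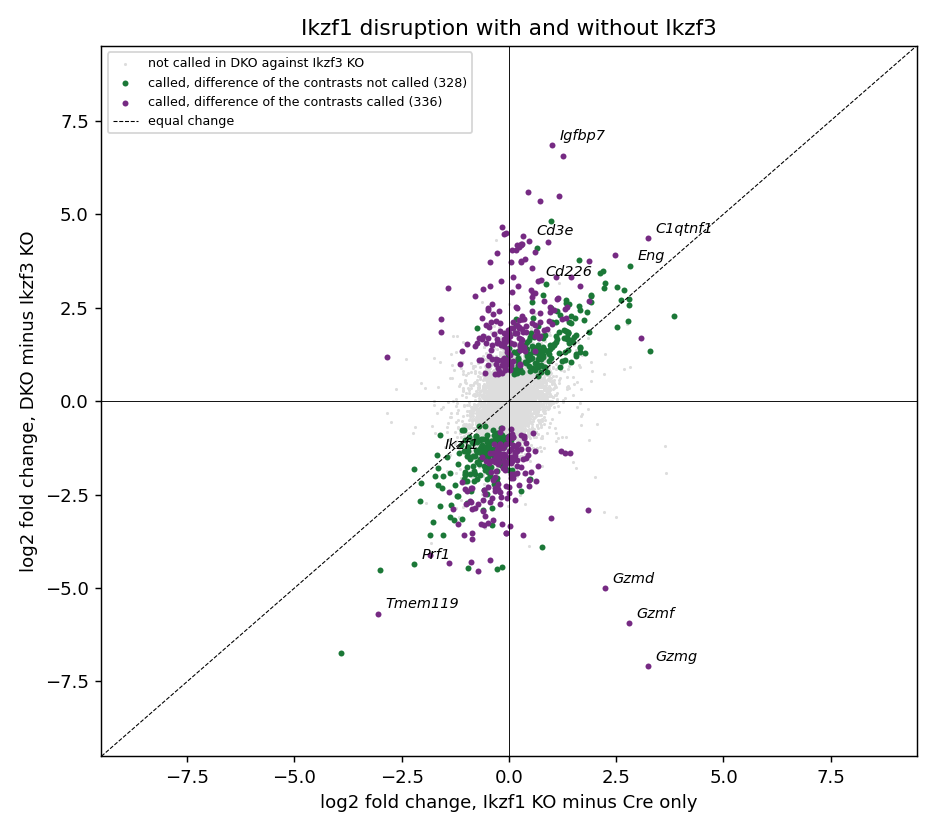
Each point is a gene, with the log2 fold change of Ikzf1 KO against Cre only on the horizontal axis and of DKO against Ikzf3 KO on the vertical axis; the dashed line marks equal change. Purple points are the 336 genes called in DKO against Ikzf3 KO for which the difference between the contrasts was also called, and green points the other 328; Gzmd, Gzmf and Gzmg lie at the lower right and Eng and C1qtnf1 near the dashed line.

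The levels were also placed against the range of the 4 Cre only libraries. Of the 338 genes higher in DKO, 210 overlapped that range in Ikzf3 KO and lay above it in DKO. In 50 genes, among them Cd74, Susd2, Cd226 and Cxcr3, all Ikzf3 KO libraries were below and all DKO libraries above the Cre only range. A further 41 were below it in Ikzf3 KO and overlapped it in DKO, among them Klra6 and Tnfsf8. Of the 326 genes lower in DKO, 172 overlapped the Cre only range in Ikzf3 KO and lay below it in DKO, among them Prf1 and Ltb4r1. In 52, among them Tmem119, Havcr2, Dmwd and Asns, Ikzf3 KO was above and DKO below the range, and in 55, among them Gzmg, Gzmd and Ctla4, Ikzf3 KO was above and DKO overlapped it. These placements are descriptions of ranges and carry no test. They cover only genes selected for a difference between DKO and Ikzf3 KO, which favours opposite sides of the Cre only range. The shares of the same placements over all genes tested are not given here, so the counts have no background beside them.

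Granzymes are serine proteases that perforin delivers into target cells. The granzyme B cluster on mouse chromosome 14 holds Gzmb to Gzmg, Gzmn and the related proteases Ctsg, Cma1 and Mcpt8. All 10 were measured; 4 fell in DKO, none rose, and the median log2 fold change was -2.51, beside -0.001 over all genes tested. The count was 4 whichever library was left out and 4 without S3 and S4. In Ikzf1 KO against Cre only the median of the same genes was 2.38, with 3 called higher and none lower, and the difference between both contrasts was called for 8 of the 10. Gzmd, Gzmf and Gzmg are near copies of each other, so reads could be split between them by the authors' counting and the values of single members are uncertain.

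Gzmd (ENSMUSG00000059256, chromosome 14, 56129556-56132608) stood at 6278, 7303, 4901 and 2082 RPKM in Ikzf3 KO and at 45.4, 166 and 397 RPKM in DKO. The lowest Ikzf3 KO library was 5.24 times the highest DKO library, and DKO overlapped the Cre only level of 444 ± 381 RPKM (SD, n = 4) (log2 change -5.00 ± 0.73 SE, adjusted p = 0.0054). Gzmg stood at 3009.5, 3548, 2901 and 829 RPKM in Ikzf3 KO and at 2.73, 18.3 and 72.7 RPKM in DKO (log2 change -7.10 ± 0.98 SE, adjusted p = 0.0045). Gzmg was at 90.8 ± 81.8 RPKM (SD, n = 4) in Cre only. Gzmf stood at 99.9, 102, 93.4 and 14.6 RPKM in Ikzf3 KO and at 0.073, 0.694 and 0.984 RPKM in DKO (log2 change -5.94 ± 0.70 SE, adjusted p = 0.0022). Gzmn stood at 5.78, 5.29, 5.46 and 1.42 RPKM in Ikzf3 KO and at 0, 0 and 0.0652 RPKM in DKO (log2 change -3.12 ± 0.42 SE, adjusted p = 0.0041). None of these 4 genes overlapped between the groups. S4 was the lowest Ikzf3 KO library for each. Gzmb itself, the main granzyme of mature NK cells, stood at 9104, 10586, 1841 and 1795 RPKM in Ikzf3 KO and at 753, 3134 and 3432 RPKM in DKO. The groups overlapped and the gene did not pass the test (log2 change -1.07 ± 0.83 SE, adjusted p = 0.47). S1 and S2 stood far above S3 and S4. Gzmc, at 14755, 17911, 12125 and 12153 RPKM in Ikzf3 KO and at 2309.7, 9035 and 9633 RPKM in DKO, did not pass the test (adjusted p = 0.21). Nor did Gzme, at 2892, 3838, 1303 and 781 RPKM in Ikzf3 KO and at 52.5, 307 and 607 RPKM in DKO (adjusted p = 0.075). Gzma, which lies on chromosome 13, did not pass it either (adjusted p = 0.35).

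To show what the genes of the cluster share, 230 bases that end 20 bases before the RefSeq start site are given for the 3 cluster members with the largest falls, beside those of Prf1, which fell, and Cd3e, which rose (GRCm38.p6, each 5′ to 3′ on its own strand). Capitals mark the letters TGGGAA on either strand; the shorter GGGA is not marked elsewhere in the windows.
Gzmd (chr14:56132614-56132843, minus strand): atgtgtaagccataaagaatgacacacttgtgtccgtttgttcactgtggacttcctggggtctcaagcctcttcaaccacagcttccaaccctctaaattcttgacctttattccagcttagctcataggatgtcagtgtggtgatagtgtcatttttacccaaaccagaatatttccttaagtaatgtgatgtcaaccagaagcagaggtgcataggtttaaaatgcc
Gzmf (chr14:56211428-56211657, minus strand): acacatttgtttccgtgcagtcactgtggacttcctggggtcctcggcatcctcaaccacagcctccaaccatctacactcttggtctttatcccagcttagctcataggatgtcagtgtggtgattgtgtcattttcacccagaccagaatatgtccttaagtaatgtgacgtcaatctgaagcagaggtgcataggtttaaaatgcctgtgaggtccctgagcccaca
Gzmg (chr14:56159600-56159829, minus strand): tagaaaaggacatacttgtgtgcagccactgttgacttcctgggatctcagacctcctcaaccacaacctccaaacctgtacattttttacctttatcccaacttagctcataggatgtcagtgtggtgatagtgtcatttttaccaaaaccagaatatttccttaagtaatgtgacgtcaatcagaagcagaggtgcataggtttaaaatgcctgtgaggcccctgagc
Prf1 (chr10:61297586-61297815, plus strand): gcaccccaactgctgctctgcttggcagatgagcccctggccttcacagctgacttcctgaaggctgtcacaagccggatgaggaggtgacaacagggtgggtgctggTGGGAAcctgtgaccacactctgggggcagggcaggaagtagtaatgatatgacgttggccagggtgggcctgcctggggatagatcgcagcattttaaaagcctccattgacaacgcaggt
Cd3e (chr9:45009632-45009861, minus strand): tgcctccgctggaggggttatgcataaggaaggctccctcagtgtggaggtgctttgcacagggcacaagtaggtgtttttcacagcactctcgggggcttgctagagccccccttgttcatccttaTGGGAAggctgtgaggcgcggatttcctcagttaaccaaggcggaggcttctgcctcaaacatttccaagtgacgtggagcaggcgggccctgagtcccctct
Gzmd and Gzmg shared an unbroken run of 44 bases, Gzmd and Gzmf one of 33, and Prf1 and Cd3e one of 9. TGGGAA or its reverse complement TTCCCA was found once each in the windows of Prf1 and Cd3e and in none of the 3 granzyme windows. It was found in 20.0% of all windows of this length in the table, in 18.9% of those of genes tested, in 25.0% of those of genes higher in DKO and in 20.0% of those of genes lower in DKO. The core letters GGGA, or TCCC on the other strand, were found 2 times in the windows of Gzmf, Gzmg and Prf1, 3 times in that of Cd3e and 0 times in that of Gzmd, and are in 91.0% of all windows of this length. A match is a match of letters and does not show binding.

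Perforin, the pore protein that lets granzymes enter the target cell, is encoded by Prf1 (ENSMUSG00000037202, chromosome 10, 61297833-61304680). It stood at 1048, 918, 489.6 and 229 RPKM in Ikzf3 KO and at 10.0, 30.2 and 66.4 RPKM in DKO (log2 change -4.37 ± 0.70 SE, adjusted p = 0.0088). All DKO libraries were below all Ikzf3 KO libraries, and Cre only stood at 719.9 ± 291 RPKM (SD, n = 4). Prf1 also fell in Ikzf1 KO, to 145 ± 4.05 RPKM (SD, n = 4) (-2.21, adjusted p = 0.00095), and the difference between the contrasts did not pass the test (adjusted p = 0.12). Of 15 measured genes of granule exocytosis, 2 fell (Prf1 and Ctsd, a lysosomal protease gene) and 1 rose (Gzmm), with a median of -0.25; leaving out S2, S3, S6 or S7 left Prf1 as the single fall, and leaving out S3, S6 or S7 removed the rise of Gzmm.

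**Figure D3:**
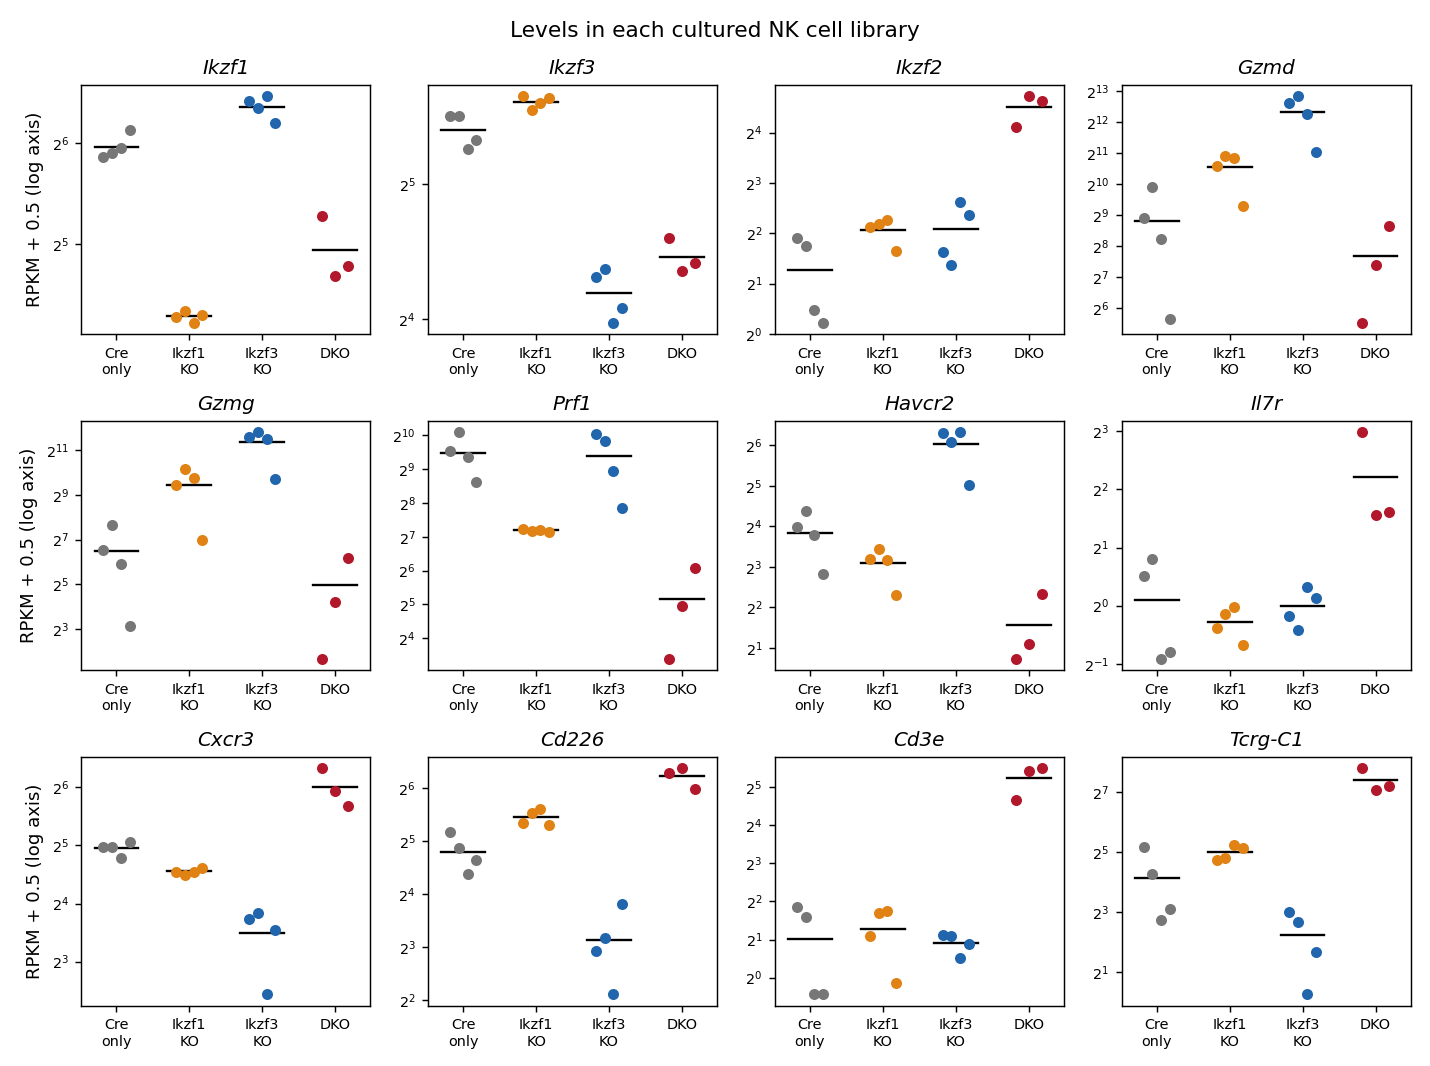
Each point is 1 library, on a log axis of RPKM + 0.5, for 12 genes in Cre only (grey), Ikzf1 KO (orange), Ikzf3 KO (blue) and DKO (red); the black line is the group mean. DKO libraries lie below all Ikzf3 KO libraries for Ikzf1, Gzmd, Gzmg, Prf1 and Havcr2 and above them for Ikzf2, Il7r, Cxcr3, Cd226, Cd3e and Tcrg-C1.

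Receptors and adaptors moved in both directions. Of 20 activating receptor and adaptor genes, 2 rose and 6 fell (median -0.16); the falls were 2 without S6, 3 without S3 or S7 and 4 without S5. Cd226, which encodes the activating receptor DNAM-1, stood at 7.14, 8.45, 3.81 and 13.6 RPKM in Ikzf3 KO and at 77.1, 82.5 and 62.3 RPKM in DKO (log2 change 3.20 ± 0.37 SE, adjusted p = 0.0021). Every DKO library exceeded the Cre only level of 27.1 ± 6.43 RPKM (SD, n = 4) and every Ikzf3 KO library was below it. Lat, an adaptor of the T cell receptor that NK cells also use, stood at 11.2, 11.9, 12.6 and 15.4 RPKM in Ikzf3 KO and at 32.3, 62.8 and 44.7 RPKM in DKO (log2 change 1.79 ± 0.25 SE, adjusted p = 0.0045). Its relative Lat2 moved the other way, at 21.9, 23.7, 33.2 and 39.3 RPKM in Ikzf3 KO and at 5.66, 4.77 and 8.11 RPKM in DKO (log2 change -2.16 ± 0.27 SE, adjusted p = 0.0029). Sh2d1b2, which encodes the SLAM family adaptor ERT, stood at 15.1, 11.2, 17.7 and 2.66 RPKM in Ikzf3 KO and at 0, 0.0193 and 0.0762 RPKM in DKO (log2 change -4.25 ± 0.56 SE, adjusted p = 0.0037). It was close to 0 in DKO. These 4 calls held whichever library was left out, with adjusted p at most 0.024. Tyrobp, which encodes the signalling adaptor DAP12, fell from 647, 886, 1102 and 1773 RPKM to 343, 220.1 and 255 RPKM (log2 change -1.94 ± 0.36 SE, adjusted p = 0.016), but the call was lost without S3, S6 or S7 (adjusted p up to 0.095). None of 14 genes of the NKG2, CD94 and NKR-P1 receptors passed the test (median 0.21; 2 higher and 1 lower without S3 and S4).

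Of 9 checkpoint receptor and enzyme genes, 4 fell and none rose (median -0.83), with 3 to 4 falls whichever library was left out. Havcr2, which encodes the inhibitory receptor TIM-3, stood at 79, 67.1, 79.7 and 32 RPKM in Ikzf3 KO and at 1.16, 1.64 and 4.49 RPKM in DKO (log2 change -4.55 ± 0.45 SE, adjusted p = 0.0011). The lowest Ikzf3 KO library was 7.14 times the highest DKO library, and the fall was larger than in Ikzf1 KO against Cre only (difference -3.84, adjusted p = 0.0021). Vsir, which encodes the checkpoint protein VISTA, stood at 82.8, 79.8, 146 and 79.6 RPKM in Ikzf3 KO and at 18, 7.51 and 13.7 RPKM in DKO (log2 change -2.88 ± 0.34 SE, adjusted p = 0.0022). The highest Ikzf3 KO library for Vsir was S3. Entpd1, which encodes the ATP-degrading enzyme CD39, stood at 9.71, 11.3, 10.4 and 3.6 RPKM in Ikzf3 KO and at 0.878, 1.22 and 0.694 RPKM in DKO (log2 change -2.60 ± 0.38 SE, adjusted p = 0.0055), below its level of 28.4 ± 4.96 RPKM (SD, n = 4) in Cre only in both groups. Ctla4 stood at 5.89, 6.16, 23.5 and 15.7 RPKM in Ikzf3 KO and at 0.0288, 0.147 and 1.44 RPKM in DKO (log2 change -3.70 ± 0.60 SE, adjusted p = 0.0091); without S6 its adjusted p was 0.055.

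Genes that mark type 1 innate lymphoid cells (ILC1), relatives of NK cells that reside in tissues, rose in part. Of 11 measured ILC1-associated genes, 6 rose and none fell, with a median of 2.02 and 5 to 6 rises whichever library was left out. Without both S3 and S4, 6 rose and 1 fell. Tmem176b, a membrane protein gene that is also high in other innate lymphoid cells, stood at 22.2, 29.7, 11.5 and 24.4 RPKM in Ikzf3 KO and at 226, 242 and 245 RPKM in DKO (log2 change 3.48 ± 0.30 SE, adjusted p = 0.00073). Its neighbour Tmem176a stood at 9.65, 13.4, 5.65 and 12.1 RPKM in Ikzf3 KO and at 109, 115 and 107 RPKM in DKO (log2 change 3.43 ± 0.28 SE, adjusted p = 0.00056). Both also rose in Ikzf1 KO (Tmem176b 2.18, adjusted p = 0.023). Tnfsf10, which encodes the death ligand TRAIL, stood at 13, 14.5, 7.92 and 20.2 RPKM in Ikzf3 KO and at 62.6, 55.6 and 47.7 RPKM in DKO (log2 change 2.02 ± 0.30 SE, adjusted p = 0.0056). Inpp4b, a lipid phosphatase gene, stood at 3.64, 3.31, 1.65 and 1.98 RPKM in Ikzf3 KO and at 21.4, 12.5 and 12.8 RPKM in DKO (log2 change 2.36 ± 0.31 SE, adjusted p = 0.0035). Il7r, which encodes the interleukin-7 receptor, stood at 0.379, 0.244, 0.75 and 0.601 RPKM in Ikzf3 KO and at 7.43, 2.46 and 2.55 RPKM in DKO (log2 change 2.09 ± 0.38 SE, adjusted p = 0.016). S5 was the highest library. The sixth, Gpr55, was lost without any 1 of S1, S2, S3, S4, S6 or S7.

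Of 13 early NK cell and memory-like genes, 4 rose and 1 fell (median 1.23; 7 rose and 1 fell without S3 and S4). Cxcr3, a chemokine receptor gene, stood at 12.8, 13.9, 4.91 and 11.2 RPKM in Ikzf3 KO and at 80.2, 61 and 50.7 RPKM in DKO (log2 change 2.59 ± 0.35 SE, adjusted p = 0.0044), around a Cre only level of 30.5 ± 2.56 RPKM (SD, n = 4). Gpr183, which encodes the oxysterol receptor EBI2, stood at 4.99, 5.29, 3.3 and 4.45 RPKM in Ikzf3 KO and at 39.5, 22.9 and 18.9 RPKM in DKO (log2 change 2.41 ± 0.28 SE, adjusted p = 0.0022). For Cxcr3 and Gpr183 the lowest DKO library lay well above the highest Ikzf3 KO library. The fall was that of Kit, and it was lost without any 1 library except S4. Of 10 mature NK genes, 3 fell and 1 rose (median -0.72), with 3 falls whichever library was left out. The 3 falls were Prf1, Itgam and Prdm1. Without both S3 and S4, 5 mature NK genes fell and 1 rose. Itgam, which encodes the maturity marker CD11b, stood at 2.26, 2.65, 6.52 and 3.81 RPKM in Ikzf3 KO and at 0.0935, 0.0488 and 0.09 RPKM in DKO (log2 change -2.80 ± 0.33 SE, adjusted p = 0.0022), with a Cre only level of 6.38 ± 1.84 RPKM (SD, n = 4). The rise was that of S1pr1, a receptor for exit from lymphoid organs, at 1.22, 1.38, 3.08 and 4.68 RPKM in Ikzf3 KO and at 28.6, 8.65 and 9.46 RPKM in DKO (log2 change 2.32 ± 0.52 SE, adjusted p = 0.036). The call was lost without any 1 library except S4 (adjusted p up to 0.1). Ltb4r1, which encodes the leukotriene B4 receptor, was the 1 fall among 14 homing receptor genes, of which 4 rose (2 without S6 or S7), at 87.2, 107, 136 and 114 RPKM in Ikzf3 KO and at 3.37, 4.96 and 7.18 RPKM in DKO (log2 change -4.34 ± 0.27 SE, adjusted p = 0.00016).

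Several genes of the T cell receptor complex rose. Of 16 measured T cell genes, 9 rose and 1 fell (median 1.33), with 6 to 9 rises whichever library was left out and 8 without S3 and S4. Cd3e (ENSMUSG00000032093, chromosome 9, 44998740-45009627), which encodes an invariant chain of the CD3 complex, stood at 1.67, 1.62, 0.935 and 1.33 RPKM in Ikzf3 KO and at 24.8, 42.4 and 44.8 RPKM in DKO (log2 change 4.29 ± 0.26 SE, adjusted p = 0.00016). Cd3e was at 1.52 ± 1.5 RPKM (SD, n = 4) in Cre only. The lowest DKO library was 14.8 times the highest Ikzf3 KO library. Trac, the constant gene of the receptor alpha chain, stood at 19.4, 16.8, 12.7 and 8.55 RPKM in Ikzf3 KO and at 76.8, 185 and 121 RPKM in DKO (log2 change 3.08 ± 0.36 SE, adjusted p = 0.0022). The groups did not overlap. Tcrg-C1 (ENSMUSG00000076749, chromosome 13, 19214103-19217024), a gamma chain constant gene, stood at 7.47, 5.92, 0.688 and 2.68 RPKM in Ikzf3 KO and at 225, 134 and 149 RPKM in DKO (log2 change 5.47 ± 0.61 SE, adjusted p = 0.0019). Icos, a co-stimulatory receptor gene that activated innate lymphocytes also express, was the 1 that fell, from 22.3, 19, 21.7 and 15.3 to 8.88, 4.12 and 4.99 RPKM (log2 change -1.68 ± 0.27 SE, adjusted p = 0.0089).

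The rise included variable segments. All 16 measured V segments of the beta chain rose (median 4.08; at least 15 whichever library was left out), and their summed level was 4.42 to 18.6 RPKM in Ikzf3 KO, 171 to 622 RPKM in DKO and 2.23 to 20.6 RPKM in Cre only. All 9 measured V, J and C segments of the gamma chain rose (median 4.82), from a summed 19.2 to 52.1 RPKM to 629 to 793 RPKM. Their sum in Cre only was 18.5 to 124 RPKM. The constant gene Trbc1 did not pass the test, at 271, 315, 245 and 343 RPKM in Ikzf3 KO and at 202, 410.1 and 315 RPKM in DKO (log2 change 0.03 ± 0.28 SE, adjusted p = 0.96). The other constant gene of the beta chain, Trbc2, was among the T cell genes called higher. Of 11 J segments of the beta chain annotated as genes none rose and 2 fell. Trbj2-6, a J segment annotated as a pseudogene and so outside these 11, rose, from 3.51, 2.37, 1.66 and 3.43 to 25.2, 32.7 and 35 RPKM (log2 change 3.31 ± 0.26 SE, adjusted p = 0.00046). Of the V segments of the alpha chain 4 of 5 rose, and of 5 delta chain segments none rose and 1 fell. Other genes of the T cell list were high in both groups and did not pass the test: Thy1 ranged from 349 to 558 RPKM, Lck, a Src family kinase gene, from 141 to 284 RPKM and Cd28, a co-stimulatory receptor gene, from 18.6 to 46.5 RPKM over the 7 libraries. Markers under the minimum level for the test were low but higher in every DKO library than in any Ikzf3 KO library. Bcl11b, a T cell lineage factor, was at 0.239 to 0.386 RPKM in Ikzf3 KO and 0.944 to 1.68 RPKM in DKO, and Cd4 at 0 to 0.0626 RPKM and 0.256 to 1.3 RPKM. Themis was at 0.00721 to 0.0272 RPKM in Ikzf3 KO and 0.149 to 0.426 RPKM in DKO, Cd6 at 0 to 0.0726 RPKM and 0.138 to 1.37 RPKM, and Cd8a at 0 to 0.0313 RPKM and 0.0355 to 0.0554 RPKM. In Cre only, Bcl11b was at 1.199 to 2.97 RPKM, Cd4 at 0 to 0.523 RPKM and Cd6 at 0 to 0.2695 RPKM, overlapping DKO. Cd8a stood at 0.761 and 0.411 RPKM in the Cre only libraries S16 and S17, above all DKO libraries, and at 0 in S18 and S19. Of these markers, only Themis was higher in every DKO library than in any Cre only library (0 to 0.0414 RPKM). These segment groups were chosen after their values were seen. In bulk libraries a share of other cells and more RNA of these genes in NK cells cannot be told apart; the summed level of all T cell genes with a row was 1162 to 1383 RPKM in Ikzf3 KO and 1992 to 2844 RPKM in DKO, and its part in these results was not tested.

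Markers of other cell types were checked in the same way. None of 12 neutrophil markers, 1 of 12 erythroid and platelet markers and 2 of 11 B cell markers had a row. The platelet marker Pf4 was at 0 in all Ikzf3 KO and Cre only libraries and at 0.931, 1.09 and 4.12 RPKM in DKO. The B cell markers with a row were Cd79b, at 0 to 0.0796 RPKM in Ikzf3 KO and 0.516 to 2.23 RPKM in DKO, and Ighm, at 27.9 to 105.8 RPKM in Ikzf3 KO and 140.3 to 195 RPKM in DKO. Neither overlapped between the groups; Ighm did not pass the test (adjusted p = 0.077), and Cd79b was under its minimum level. Macrophage and monocyte markers summed to 27.2 to 80.2 RPKM in Ikzf3 KO and 5.77 to 23.6 RPKM in DKO, while Lyz2 among them went the other way, at 0 to 0.192 RPKM in Ikzf3 KO and 0.918 to 1.94 RPKM in DKO, without overlap. Dendritic cell markers summed to 66.6 to 76.6 RPKM in Ikzf3 KO, 89.2 to 174 RPKM in DKO and 136 to 161 RPKM in Cre only. Of 10 listed, 4 had no row (Flt3, Clec9a, Siglech and Cd209a). Batf3 and Bst2, which are also on the AP-1 and interferon lists, rose, and Itgax fell. Without any 1 library except S5, 1 rise and no fall remained. Mast cell and basophil markers summed to 119.5 to 215 RPKM in Ikzf3 KO and 53.2 to 101 RPKM in DKO, and markers of other innate lymphoid cells (ILC2 and ILC3) to 165 to 225 RPKM and 219 to 274 RPKM.

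MHC class II molecules present peptides to T cells and are assembled with the invariant chain, the product of Cd74. Of 6 measured genes of this group, 3 rose and none fell (median 0.90). In 2 of the genes not called, every DKO library lay below every Ikzf3 KO library. Without S3 and S4, 4 rose and none fell (median 1.58). Without S1 and S2, 3 rose and 3 fell (median 0.22). Cd74 stood at 0.776, 0.485, 0.62 and 0.526 RPKM in Ikzf3 KO and at 17.6, 22.3 and 34.9 RPKM in DKO (log2 change 4.48 ± 0.25 SE, adjusted p = 0.00013). The Cre only level was 8.22 ± 7.27 RPKM (SD, n = 4), with Ikzf3 KO below and DKO above all Cre only libraries. H2-Aa stood at 0.225, 0.304, 1.14 and 0.923 RPKM in Ikzf3 KO and at 8.99, 8.01 and 12 RPKM in DKO (log2 change 3.21 ± 0.34 SE, adjusted p = 0.0014). The third, H2-Eb1, had adjusted p = 0.012 and was lost without S5 or S6. The part of the dendritic cell markers given above in these values was not tested.

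Of the 4 measured members of the Ikaros family, 2 rose and Ikzf1 fell. Ikzf2 (ENSMUSG00000025997, chromosome 1, 69531214-69687245), which encodes Helios, stood at 2.6, 2.09, 5.64 and 4.65 RPKM in Ikzf3 KO and at 16.8, 25.9 and 24.1 RPKM in DKO (log2 change 2.49 ± 0.33 SE, adjusted p = 0.004). Ikzf2 was at 1.91 ± 1.33 RPKM (SD, n = 4) in Cre only and 3.71 ± 0.745 RPKM (SD, n = 4) in Ikzf1 KO. All DKO libraries were above all other cultured libraries. Ikzf4, which encodes Eos, stood at 1.21, 1.04, 0.0795 and 0.179 RPKM in Ikzf3 KO and at 4.43, 3.05 and 3.95 RPKM in DKO (log2 change 2.08 ± 0.42 SE, adjusted p = 0.024). Its call was lost without S4, S5, S6 or S7 (adjusted p up to 0.093). Of 8 measured AP-1 factors, the dimeric factors of the Jun, Fos and Batf families, 2 fell and 1 rose (median -0.83), with 5 falls and 1 rise without S3 and S4. Jun stood at 55.6, 54.7, 47.1 and 21.6 RPKM in Ikzf3 KO and at 5.18, 6.51 and 10.3 RPKM in DKO (log2 change -2.49 ± 0.37 SE, adjusted p = 0.0061). Batf3, a small factor that pairs with Jun proteins, stood at 0.158, 0.143, 0.0497 and 0 RPKM in Ikzf3 KO and at 3.49, 7.68 and 9.42 RPKM in DKO (log2 change 3.56 ± 0.32 SE, adjusted p = 0.00083). It was at 0.191 ± 0.0896 RPKM (SD, n = 4) in Cre only and the difference between the contrasts was called (3.03, adjusted p = 0.00061). Fosl2 fell (log2 change -1.47 ± 0.29 SE, adjusted p = 0.023) but was lost without S5 or S6, and Junb, at 123, 138, 161 and 87.7 RPKM in Ikzf3 KO and 55.1, 60.7 and 74.2 RPKM in DKO, had adjusted p = 0.051.

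Among 21 other transcription factors of NK and innate lymphoid cells, 3 fell and 1 rose (median -0.17, and 3 fell and 3 rose without S3 and S4). Nfil3, a factor needed early in NK cell development, stood at 174, 183, 202 and 146 RPKM in Ikzf3 KO and at 16.1, 20.2 and 35.4 RPKM in DKO (log2 change -2.92 ± 0.28 SE, adjusted p = 0.00091). Prdm1, which encodes the terminal differentiation factor BLIMP-1, stood at 23.1, 21.6, 26.6 and 16.7 RPKM in Ikzf3 KO and at 7.42, 5.35 and 8.67 RPKM in DKO (log2 change -1.56 ± 0.23 SE, adjusted p = 0.0056). Neither gene overlapped between the groups. Tox, a factor of NK and innate lymphoid cell progenitors, stood at 1.68, 1.71, 1.65 and 2.2 RPKM in Ikzf3 KO and at 8.95, 5.91 and 7.09 RPKM in DKO (log2 change 1.75 ± 0.20 SE, adjusted p = 0.0022), with DKO overlapping the range of Cre only and Ikzf3 KO below it. The falls of Nfil3 and Prdm1 and the rise of Tox were called whichever library was left out; the third fall, that of Hhex, was lost without S6 or S7.

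Without both S3 and S4, 4 of 13 other cytokine receptor genes rose and 3 fell. In the fit of all 7 libraries, 2 rose and 1 fell (median 0.02), with the same counts whichever single library was left out. The rises were Il7r, above, and Il6st, the shared receptor chain gp130, at 0.819, 0.462, 0.902 and 0.824 RPKM in Ikzf3 KO and at 3.4, 3.72 and 3.3 RPKM in DKO (log2 change 1.68 ± 0.21 SE, adjusted p = 0.0026). Il10ra, which encodes the interleukin-10 receptor, stood at 64, 54.9, 112 and 90.0 RPKM in Ikzf3 KO and at 9.25, 10.6 and 19.5 RPKM in DKO (log2 change -2.59 ± 0.33 SE, adjusted p = 0.0034). Of 12 cytokines and TNF family ligands, 3 rose and none fell (median 0.35). Tnfsf8, which encodes the CD30 ligand, stood at 1.72, 2.21, 1.38 and 2.92 RPKM in Ikzf3 KO and at 6.52, 11.7 and 14.6 RPKM in DKO (log2 change 2.13 ± 0.32 SE, adjusted p = 0.006). Ccl17 was the 1 of 6 chemokine genes to rise, at 0.164, 0.443, 1.7 and 0.641 RPKM in Ikzf3 KO and at 3.26, 28.3 and 48.4 RPKM in DKO (log2 change 3.96 ± 0.82 SE, adjusted p = 0.028). Its call was lost without S1, S4, S6 or S7 (adjusted p up to 0.13). Ccl5 did not pass the test, at 18.6, 23.6, 50.6 and 40.1 RPKM in Ikzf3 KO and at 41.7, 84.2 and 119.7 RPKM in DKO (adjusted p = 0.14), far below the Cre only level of 689 ± 90.1 RPKM (SD, n = 4). Tgfbr3, which encodes the TGF-beta co-receptor betaglycan, was the 1 gene of 15 in the TGF-beta and activin pathway to rise, at 0.116, 0.0696, 0.255 and 0.277 RPKM in Ikzf3 KO and at 1.99, 1.94 and 1.83 RPKM in DKO (log2 change 1.84 ± 0.20 SE, adjusted p = 0.0018).

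Interferon-stimulated genes rose in part. Of 20 measured, 6 rose and none fell (median 0.71). The count of rises was 4 without S1, S2 or S5, 2 without S3 and 1 without S4, S6 or S7. Without both S3 and S4, 5 rose and 1 fell. Gbp2, a guanylate-binding protein gene, stood at 18.8, 22.5, 26.8 and 29.8 RPKM in Ikzf3 KO and at 53.3, 83.7 and 69.9 RPKM in DKO (log2 change 1.47 ± 0.23 SE, adjusted p = 0.0078). Iigp1, an interferon-inducible GTPase gene among the 15 largest rises, stood at 0.998, 0.985, 0.0764 and 0.132 RPKM in Ikzf3 KO and at 4.73, 22.9 and 16.9 RPKM in DKO (log2 change 3.76 ± 0.58 SE, adjusted p = 0.0072). Both held whichever library was left out. Of 7 Schlafen genes, a family of growth regulators, 3 rose and none fell (median 0.69), with 2 rises without S2 or S5 and 1 without S3, S4, S6 or S7. Slfn5 stood at 0.213, 0.144, 0.138 and 0.182 RPKM in Ikzf3 KO and at 3.48, 1.58 and 2.5 RPKM in DKO (log2 change 2.13 ± 0.25 SE, adjusted p = 0.0022).

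Some genes of glycolysis and of the response to low oxygen fell, with large differences between libraries. Of 23 measured, 8 fell, 15 did not pass the test, none rose and all 23 had a negative log2 fold change (median -1.77). The falls numbered 5 without S1, 4 without S2 or S4, 1 without S3, S5 or S6, 18 without S7 and 2 without both S3 and S4. Vegfa, a growth factor gene induced by low oxygen, stood at 26.7, 22.3, 45.9 and 31.8 RPKM in Ikzf3 KO and at 0.251, 0.252 and 4.22 RPKM in DKO (log2 change -4.48 ± 0.63 SE, adjusted p = 0.0049) and held whichever library was left out. Egln3, which encodes an oxygen-sensing prolyl hydroxylase, stood at 83.9, 73.4, 163 and 84.3 RPKM in Ikzf3 KO and at 0.656, 2.6 and 23.8 RPKM in DKO (log2 change -4.44 ± 0.89 SE, adjusted p = 0.024). S7 was the highest DKO library and the call was lost without S3, S4, S5 or S6. Aldoc, at 57.5, 68.9, 278 and 267 RPKM in Ikzf3 KO and at 1.25, 4.06 and 26.2 RPKM in DKO (log2 change -4.46 ± 0.95 SE, adjusted p = 0.03), was lost without the same 4 libraries. Ankrd37, at 38.7, 51.1, 49 and 62 RPKM in Ikzf3 KO and at 0.436, 1.53 and 18.8 RPKM in DKO (log2 change -3.91 ± 0.88 SE, adjusted p = 0.036), was lost without any 1 library except S7. In Ikzf1 KO against Cre only, 12 of the 23 fell (median -0.57), and the difference between the contrasts was called for none.

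Of 19 genes of the amino acid stress response, 4 fell and none rose (median -0.65). The falls were 3 to 5 whichever library was left out and 6 without S3 and S4. Asns, which encodes asparagine synthetase, stood at 38.7, 46.6, 44.7 and 34.6 RPKM in Ikzf3 KO and at 1.15, 5.26 and 7.48 RPKM in DKO (log2 change -3.29 ± 0.48 SE, adjusted p = 0.0056). Trib3, a pseudokinase gene, stood at 24.7, 28.2, 69 and 41.6 RPKM in Ikzf3 KO and at 4.3, 2.82 and 4.07 RPKM in DKO (log2 change -3.19 ± 0.35 SE, adjusted p = 0.0019). Chac1, a glutathione-degrading enzyme gene, stood at 6.22, 6.89, 5.24 and 2.87 RPKM in Ikzf3 KO and at 0, 0.33 and 0.197 RPKM in DKO (log2 change -3.07 ± 0.32 SE, adjusted p = 0.0014). For these 3 genes the difference between the contrasts was called, with Asns at -3.13 (adjusted p = 0.0064). Genes of growth did not pass the test. None of 21 DNA replication and S phase genes was called (median 0.81, 21 of 21 positive), none of 24 mitosis genes (median 0.01), none of 23 ribosome biogenesis and MYC target genes (median 0.75) and none of 22 cytosolic ribosomal protein genes (median -0.39). Without S1 and S2, 19 S phase genes and 17 ribosome biogenesis genes were called higher and 15 ribosomal protein genes lower. Without S3 and S4 these counts were 0, 0 and 0, and 1 ribosome biogenesis gene was lower. In Ikzf1 KO against Cre only, 13 of the 21 S phase genes were called higher and none lower (median 0.67). For the 24 mitosis genes these counts were 11 and 0 (median 0.84). The difference between the contrasts was called for 0 S phase genes and 1 mitosis gene.

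The largest rises outside these lists were of genes at no more than 2.44 RPKM in Ikzf3 KO. Igfbp7 (ENSMUSG00000036256, chromosome 5, 77349240-77408041), which encodes a secreted protein that binds insulin-like growth factors, stood at 0.139, 0.0942, 0 and 0.136 RPKM in Ikzf3 KO and at 78.1, 67.4 and 57.6 RPKM in DKO (log2 change 6.84 ± 0.19 SE, adjusted p = 2.3e-06). It was at 0.0429 ± 0.0858 RPKM (SD, n = 4) in Cre only and 0.609 ± 0.29 RPKM (SD, n = 4) in Ikzf1 KO, so its rise in DKO was larger than with Ikzf3 intact (difference 5.83, adjusted p = 2.3e-08). Chad, which encodes the cartilage matrix protein chondroadherin, stood at 2.15, 2.44, 1.37 and 1.86 RPKM in Ikzf3 KO and at 239, 45.4 and 20.2 RPKM in DKO (log2 change 4.66 ± 0.71 SE, adjusted p = 0.0067). S5 stood far above S6 and S7, and no DKO library overlapped Ikzf3 KO. C1qtnf1, a secreted protein gene, stood at 0.0538, 0.0727, 0 and 0 RPKM in Ikzf3 KO and at 9.67, 10.2 and 11.1 RPKM in DKO (log2 change 4.35 ± 0.18 SE, adjusted p = 2.7e-05). C1qtnf1 was at 4.53 ± 0.407 RPKM (SD, n = 4) in Ikzf1 KO. Procr, which encodes the endothelial protein C receptor, stood at 0.0414, 0, 0.117 and 0 RPKM in Ikzf3 KO and at 3.5, 10.6 and 8.08 RPKM in DKO (log2 change 3.75 ± 0.34 SE, adjusted p = 0.00083). Maged1, a MAGE family gene, stood at 0.193, 0, 0.347 and 0.341 RPKM in Ikzf3 KO and at 9.94, 9.78 and 10.6 RPKM in DKO (log2 change 3.91 ± 0.24 SE, adjusted p = 0.00016). Susd2, a membrane protein gene, stood at 0.294, 0.398, 0.0463 and 0.192 RPKM in Ikzf3 KO and at 18.2, 9.07 and 8.69 RPKM in DKO (log2 change 4.03 ± 0.31 SE, adjusted p = 0.00038).

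Among the largest falls outside the lists, Dmwd, a gene beside the myotonic dystrophy kinase gene, stood at 15.3, 15.2, 33.6 and 17 RPKM in Ikzf3 KO and at 0.289, 0.096 and 0.808 RPKM in DKO (log2 change -4.53 ± 0.36 SE, adjusted p = 0.0005). Dmwd was at 0.461 ± 0.103 RPKM (SD, n = 4) in Ikzf1 KO. Capn5, which encodes a calcium-dependent protease, stood at 15.1, 12.8, 28 and 10.4 RPKM in Ikzf3 KO and at 0.171, 0.161 and 0.683 RPKM in DKO (log2 change -4.30 ± 0.37 SE, adjusted p = 0.00067). S100a6, 1 of 2 falls among 13 S100 and annexin genes, stood at 294, 373, 365 and 529 RPKM in Ikzf3 KO and at 86.9, 70.7 and 92.4 RPKM in DKO (log2 change -2.20 ± 0.24 SE, adjusted p = 0.0018), and also fell in Ikzf1 KO (-2.04, adjusted p = 0.0026; difference -0.16, adjusted p = 0.85). The 9 genes named in these 2 paragraphs kept their call whichever library was left out.

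**Figure D4:**
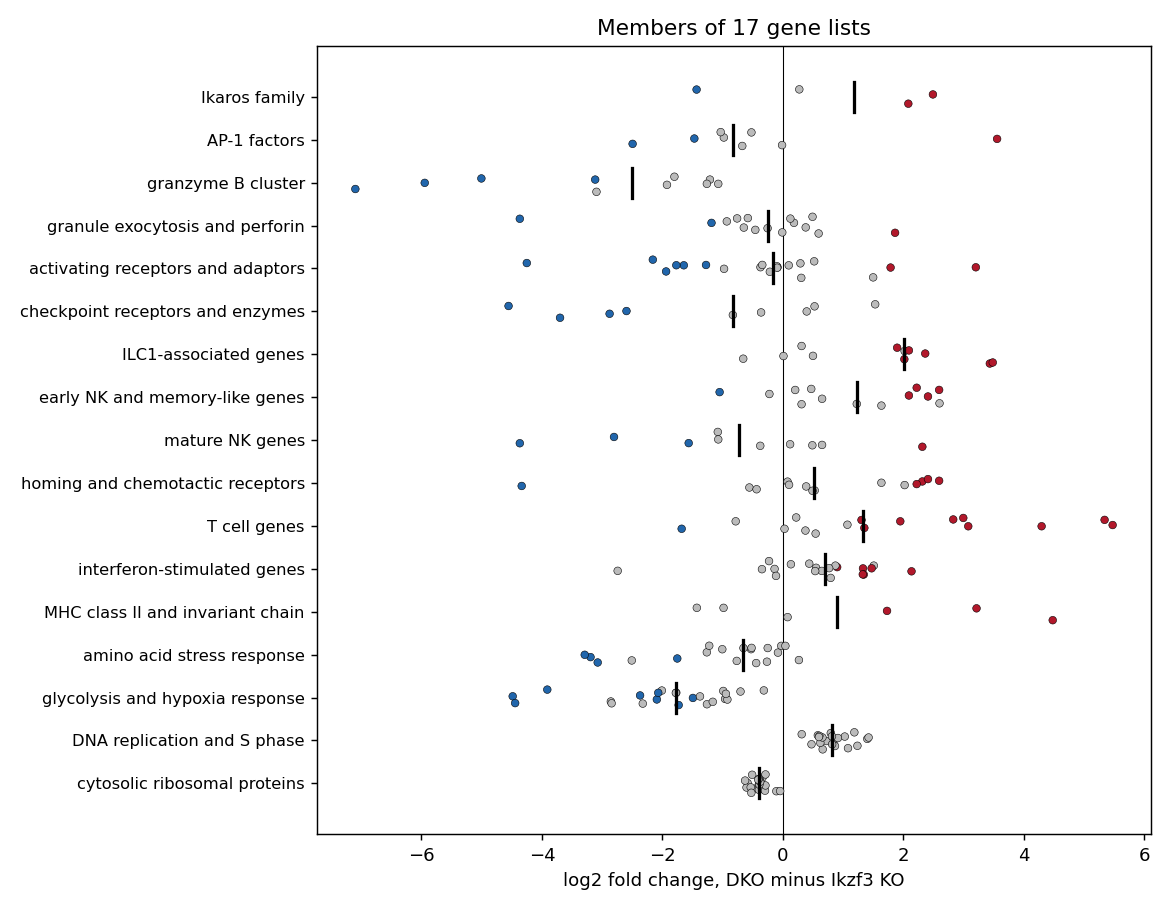
Each point is a measured member of 1 of 17 gene lists, with its log2 fold change of DKO against Ikzf3 KO on the horizontal axis; red points were called higher, blue points lower and grey points did not pass the test, and the black bar is the list's median. All members of the granzyme B cluster and of the glycolysis and hypoxia list lie to the left of 0, and all S phase genes to the right without a call.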

How the data were processed

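Polyadenylated RNA was sequenced as 75-base single-end reads, per the labels' protocols. The authors deposited 1 table of RPKM values per gene and library for 15 cultured samples, with mm10, STAR, featureCounts and limma 3.34.9 named in the submitters' processing notes. Column headers give the group of a library but not its replicate, so libraries were grouped by genotype alone. Values of 11291 of 11736 genes (96.2%) came out as whole reads in every library, within 0.02 of a read, with exon lengths from GENCODE M21.

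DKO and Ikzf3 KO were compared with limma 3.58.1 (R 4.3.3) on log2(RPKM + 0.5) in genes at 1 RPKM or more in at least 3 of the 7 libraries, with a variance trend, robust empirical Bayes and Benjamini-Hochberg adjustment over all genes tested. Only the 7 libraries entered that fit, 8 entered Ikzf1 KO against Cre only, and 15 the difference of the contrasts. Replicate libraries are described as biological replicates in the labels' protocols; libraries within a group differed by more than counting noise. The script was tested on simulated data. Named genes are Ikzf1 and Ikzf3, the 15 largest rises and 15 largest falls at 5 RPKM or more without overlap, up to 4 members of each of 47 lists by adjusted p, and 5 genes in each direction for the difference of contrasts; predicted genes and receptor segments were left out of the largest changes. Among these, genes with stable calls were described first; some genes that the rule names are not reported here. Tyrobp, Icos, Cd3d, Trac, Gzmb, Gzmc, Gzma, Eomes, Trbc1, Hhex, Kit, Gpr55, Ctsd, the mitochondrial genes and the noncoding genes were added after their values were seen, except where a list's rule also names them. The comparison, the lists and the rule were chosen with earlier results of these data known. Sequences are from RefSeq (GRCm38.p6); of the genes tested, 7446 symbols had an entry. Since the unit is RPKM, limma voom on recovered reads was run as an added alternative in place of a count model.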

Additional observations from a re-analysis of the deposited data

Results flagged for a closer look

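The list below holds 54 genes named here that were called in DKO against Ikzf3 KO. For each, the change from Ikzf3 KO to DKO differed from the change from Cre only to Ikzf1 KO. The calls are from the fit of 15 libraries (adjusted p under 0.05), whose shared variance can be too small for Ikzf3 KO. The difference includes the change from Ikzf3 KO to DKO by which these genes were called, which favours a called difference among them. Gzme and Ctsg, which were not called in DKO against Ikzf3 KO, are not listed, though the difference was called for both. The values in parentheses are the difference of the log2 fold changes, DKO against Ikzf3 KO minus Ikzf1 KO against Cre only. The difference was negative for Gzmg (-10.35), Gzmf (-8.75), Gzmd (-7.25), Gzmn (-4.11), Havcr2 (-3.84), Sh2d1b2 (-3.81), Capn5 (-3.42), Asns (-3.13), Ltb4r1 (-2.94), Ctla4 (-2.85), Trib3 (-2.82), Tmem119 (-2.63), Il10ra (-2.55), Chac1 (-2.50), Gm44040 (-2.26), Entpd1 (-2.19), Vsir (-2.03), Jun (-1.92), Prdm1 (-1.75) and Lat2 (-1.07). It was positive for Igfbp7 (5.83), Chad (4.83), Tcrg-C2 (4.61), Cd74 (4.61), Tcrg-C1 (4.31), Ccl17 (4.23), Jaml (4.02), Susd2 (3.87), Cd3e (3.84), Klra6 (3.79), Tcrg-C4 (3.60), Trac (3.52), H2-Aa (3.39), Batf3 (3.03), Cxcr3 (2.99), mt-Cytb (2.71) and Gpr183 (2.63). It was also positive, and smaller, for Tnfsf8 (2.53), Cd226 (2.52), mt-Nd6 (2.39), H2-Eb1 (2.34), Il7r (2.30), mt-Nd5 (2.28), Lat (2.14), Gzmm (2.07), Procr (1.90), Tox (1.73), Inpp4b (1.65), Tnfsf10 (1.62), Gbp2 (1.58), Tgfbr3 (1.52), Maged1 (1.45), C1qtnf1 (1.10) and Il6st (0.98). Each of the 4 granzymes listed here with a negative difference (Gzmd, Gzmf, Gzmg and Gzmn) had a higher mean in Ikzf1 KO than in Cre only. Each also had a lower mean in DKO than in Ikzf3 KO.

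In 9 of 100 genes, 1 Ikzf3 KO library stood far from the other 3 by Dixon's test (95% critical value for 4 values); chance flags about 1 in 20 such groups. S3 was high for Dmwd (33.6 RPKM), Egln3 (163 RPKM), Ctsg (78.8 RPKM) and Vsir (146 RPKM), and low for mt-Nd6 (270.0 RPKM). S4 was low for Gzmf (14.6 RPKM) and Gzmn (1.42 RPKM) and high for Tox (2.20 RPKM) and Klra6 (6.72 RPKM).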

How the results depend on the processing

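For DKO against Ikzf3 KO, 664 genes were called, 338 higher and 326 lower. Pseudocounts of 0.1 and 1, no filter, 2 other scalings, plain empirical Bayes and voom on recovered reads (chosen after seeing the data) gave 629 to 877, each within 1.5 times. A minimum of 5 RPKM gave 314 (143 higher, 171 lower), from fewer genes tested. Array weights gave 1881 (936 higher, 945 lower), all 15 libraries in 1 fit 1932 (975 and 957) and leaving out S1 and S2 3765 (1964 and 1801); the cause was not tested. Without S3 and S4, 517 genes were higher. Leave-one-out gave 279 to 568 in all, 170 to 292 higher and 109 to 284 lower. Ikzf1 KO against Cre only gave 3782 genes with array weights, 564 with all 15 libraries in 1 fit and 1007 to 2387 under leave-one-out, beside 1921. The difference of the contrasts gave 332 genes at a minimum of 5 RPKM, 1446 with array weights, 1022 without S3 and S4, 4046 without S1 and S2 and 363 to 822 under leave-one-out, beside 635.

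Of 86 called genes named here, 63 kept their call under every alternative that gave a value, 105 of 1614 gene-by-alternative values lost it and none changed sign. Signs changed in 11 values of genes not called. Without S1 and S2, the log2 fold change was 0.14 for Gzmb, -0.22 for mt-Co1 and -0.15 for Klrb1c. For Eomes it was -0.18 with array weights, -0.21 without S3 and S4, and as low as -0.062 (without S4) and -0.011 (without S5) under leave-one-out, where the range was -0.062 to 0.19. For Trbc1 it was -0.0069 without S1, -0.055 without S3, -0.21 without S6 and -0.016 without S7, in a leave-one-out range of -0.21 to 0.30.

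No paired analysis was possible because the columns carry no replicate number. Precision is limited by 3 and 4 libraries a group, by the spread within Ikzf3 KO and by depth, with no library under 8.6 recovered megareads; their shares were not compared.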

Other observations

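Of 7 measured protein genes of the mitochondrial genome, a group chosen after its values were seen, 6 were called higher in DKO and none lower (median log2 fold change 1.69). All 7 were higher without S3 and S4, and the count was 4 without S3, 2 without S5 or S6 and 3 without S7. mt-Nd5, which encodes a subunit of respiratory complex I, stood at 389, 353, 307 and 350.3 RPKM in Ikzf3 KO and at 1370.3, 1022 and 965 RPKM in DKO (log2 change 1.66 ± 0.22 SE, adjusted p = 0.0036). mt-Nd6, from the other strand, stood at 368, 359, 269.9 and 370.1 RPKM in Ikzf3 KO and at 1382, 1022 and 922 RPKM in DKO (log2 change 1.69 ± 0.24 SE, adjusted p = 0.0049). Both held whichever library was left out. Whether the counting used strand is not given in the sources used here, and without it reads of mt-Nd6 and of RNA from the opposite strand cannot be told apart. mt-Co1, which encodes a subunit of complex IV, stood at 1844, 1831, 3999 and 5202 RPKM in Ikzf3 KO and at 4572, 3599.8 and 3678 RPKM in DKO (adjusted p = 0.56); S3 and S4 were higher than S1 and S2 for this gene and lower for mt-Cytb, which stood at 1042, 1027, 351 and 394 RPKM in Ikzf3 KO and at 3739, 3127 and 2669 RPKM in DKO. Nuclear genes of oxidative phosphorylation gave 1 rise and no fall among 21.

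Of 314 long noncoding RNA genes tested, 12 rose (3.82%) and 24 fell (7.64%), beside 3.47% and 3.35% of all genes tested, with 3 rises and 12 falls without S6, 8 and 13 without S5, 6 and 16 without S7, and 7 and 16 without S3, and 15 falls without S4. Besides Gm33424, Gm44040 stood at 22.2, 23.6, 23.6 and 19.2 RPKM in Ikzf3 KO and at 0.616, 0.9 and 0.948 RPKM in DKO (log2 change -4.11 ± 0.18 SE, adjusted p = 2.9e-05). Gm44040 was at 7.64 ± 3.1 RPKM (SD, n = 4) in Cre only.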
